A study of Mus musculus with 11 samples.

Results

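Complement is a cascade of proteins that tags material for removal. The C1q complex, made of the chains C1qa, C1qb and C1qc, starts the classical arm, which runs through C4 and C2 to C3, and fragments of C3 and C5 then act on receptors of phagocytes. In the brain, microglia are the known source of C1q, and complement is known for marking synapses that microglia take up. The genes described here are 8 of the 31053 genes in the deposited matrices, chosen by symbol: the 3 chains C1qa, C1qb and C1qc, the components C3 and C4b, and the receptors C3ar1, C5ar1 and Itgam. All 8 were found.

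They were measured by RNA sequencing of single nuclei from the cortex of 11 mice, 1 library per mouse. The labels give all mice as female, whereas the study's methods speak of males for RNA sequencing, and the labels were followed. The groups were 4 Ikbkb+/+ mice (9.8 to 10.85 months old) without the tau transgene, 3 Ikbkb+/+;P301S+ mice (9.15 to 10.75 months), 2 Ikbkb-/-;P301S+ mice (8.39 and 9.15 months) and 2 IkbkbCA;P301S+ mice (10.85 and 9.8 months). P301S+ marks the PS19 line, which carries a human tau transgene with the P301S mutation, driven by the mouse prion protein promoter. Ikbkb encodes IKKβ, a kinase upstream of the transcription factor NF-κB. In the Ikbkb-/- mice it was deleted, and in the IkbkbCA mice a constantly active form was expressed from the Rosa26 locus, in both cases by the tamoxifen-induced Cx3cr1-CreERT2, which acts in microglia and in other cells that express Cx3cr1. Tamoxifen was given to all groups at 2.5 to 3 months of age. The Ikbkb+/+ groups carried no Cre, so Cre and the loss of 1 copy of Cx3cr1 cannot be told apart from the change in IKKβ. The Ikbkb-/- mice came from the floxed Ikbkb line and the IkbkbCA mice from the IkbkbCA line, whereas both Ikbkb+/+ groups held mice of both lines. Replicates 3 and 4 of the Ikbkb+/+ mice and replicate 3 of the Ikbkb+/+;P301S+ mice came from the IkbkbCA line. The other mice of these groups came from the floxed Ikbkb line. Replicate 3 is thus the only Ikbkb+/+;P301S+ mouse of the same line as the IkbkbCA;P301S+ mice. The comparisons were P301S (Ikbkb+/+;P301S+ minus Ikbkb+/+), knockout (Ikbkb-/-;P301S+ minus Ikbkb+/+;P301S+) and active IKKβ (IkbkbCA;P301S+ minus Ikbkb+/+;P301S+). All 3 share the 3 Ikbkb+/+;P301S+ mice.

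Between 7500 and 12315 barcodes were read per library, with 72007219 to 93205362 UMIs (molecular tags, each standing for 1 captured RNA molecule), and 103065 nuclei were used. Of these, 4471 were microglia-like (196 to 731 per mouse, 386676 to 1648793 UMIs per mouse), with all 10 microglial markers raised in the main groups of these nuclei. They include 116 macrophage-like and 35 T cell-led nuclei. Among 112502 barcode sequences, 1599 occurred in more than 1 library. Ikbkb itself, read from its 3′ end, stood at 112 and 107 CPM (UMIs of the gene scaled to 1e6 UMIs of the type) in microglia-like nuclei of the Ikbkb-/- mice and at 124 to 155 CPM in the Ikbkb+/+ mice. A transcript that lacks the deleted part can still be counted, so this is a weak check of the labels. The IkbkbCA mice stood at 163 and 149 CPM, the second inside the range of the Ikbkb+/+ mice, so this level does not set both apart.

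The C3 promoter is shown because C3 is the member whose microglial counts differed most between genotypes, and the C1qc match because it is the only one of its kind found among the members. RefSeq held a start-site window for 6 of the 8 members, and C1qa and C4b had none. The 250 bases before the RefSeq start of C3, read 5′ to 3′ at chr17:57228137-57228386 of GRCm38 on the minus strand, hold no match to the 10-base κB consensus, the DNA motif of NF-κB, on either strand. The window of C1qc holds 1 match, at chr4:136892946-136892955 on the strand of the gene and beginning 41 bases before the RefSeq start, which lies inside the GENCODE gene model. Capitals mark the match.
C3 promoter: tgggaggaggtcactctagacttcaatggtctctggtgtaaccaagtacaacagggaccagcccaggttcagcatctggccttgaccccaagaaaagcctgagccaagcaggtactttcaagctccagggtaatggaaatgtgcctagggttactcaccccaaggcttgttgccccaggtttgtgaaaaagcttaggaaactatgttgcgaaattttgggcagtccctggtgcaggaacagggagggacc
C1qc match: GGGGCTCTCC
The same consensus was present in 1281 of 32851 windows of this length (3.90%). A match describes letters only, and the lack of one says nothing about the factor, which may bind other letters or elsewhere.

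The 3 C1q chains were, in every mouse, far higher in microglia-like nuclei than in any other type. The genes lie side by side on the minus strand of chromosome 4, with C1qb at chr4:136880129-136886187, C1qc at chr4:136889804-136893065 and C1qa at chr4:136895917-136898803 (GRCm38, GENCODE M21). Microglia-like nuclei held 2561 of the 3038 C1qa UMIs (84.3%), 3122 of the 3660 C1qb UMIs (85.3%) and 2318 of the 2703 C1qc UMIs (85.8%). For each chain the next type in the order of levels was a second inhibitory neuron-like cluster, led by Cpa6 and Lgr5 and kept apart for its low depth (median 1100 UMIs per nucleus), and each was higher in microglia-like nuclei in 11 of 11 mice (exact sign-flip permutation test over mice, two-sided, p = 0.000976562, Benjamini-Hochberg adjusted p = 0.0141 over the 72 neighbouring pairs of all members). No pair further down the order passed the test for any chain. Summed over the chains and over mice, the level was 840 CPM in microglia-like nuclei, 8.52 CPM in the Cpa6 and Lgr5 cluster, 6.23 CPM in oligodendrocyte-like nuclei and 1.15 CPM in excitatory neuron-like nuclei. In excitatory neuron-like nuclei the 3 chains stood in proportions near the microglial ones. Types with fewer UMIs leave wide intervals, such as C1qc in OPC-like nuclei (oligodendrocyte precursors), at 15.8% (Wilson interval 7.44 to 30.4%) of 38 UMIs. C1qa, C1qb and C1qc made up 32.01%, 39.02% and 28.97% of the summed UMIs in microglia-like nuclei. In excitatory neuron-like nuclei they made up 32.7% (Wilson interval 28.8 to 36.9%), 39.7% (35.6 to 44.0%) and 27.6% (23.9 to 31.6%), intervals of counting error that hold the microglial values. After each nucleus was thinned to 1000 UMIs, 27.1% of 4424 microglia-like nuclei had a C1qb UMI against 0.0569% of 38668 excitatory neuron-like nuclei. A gene without a UMI in a nucleus is not shown to be silent there.

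**Figure D1:**
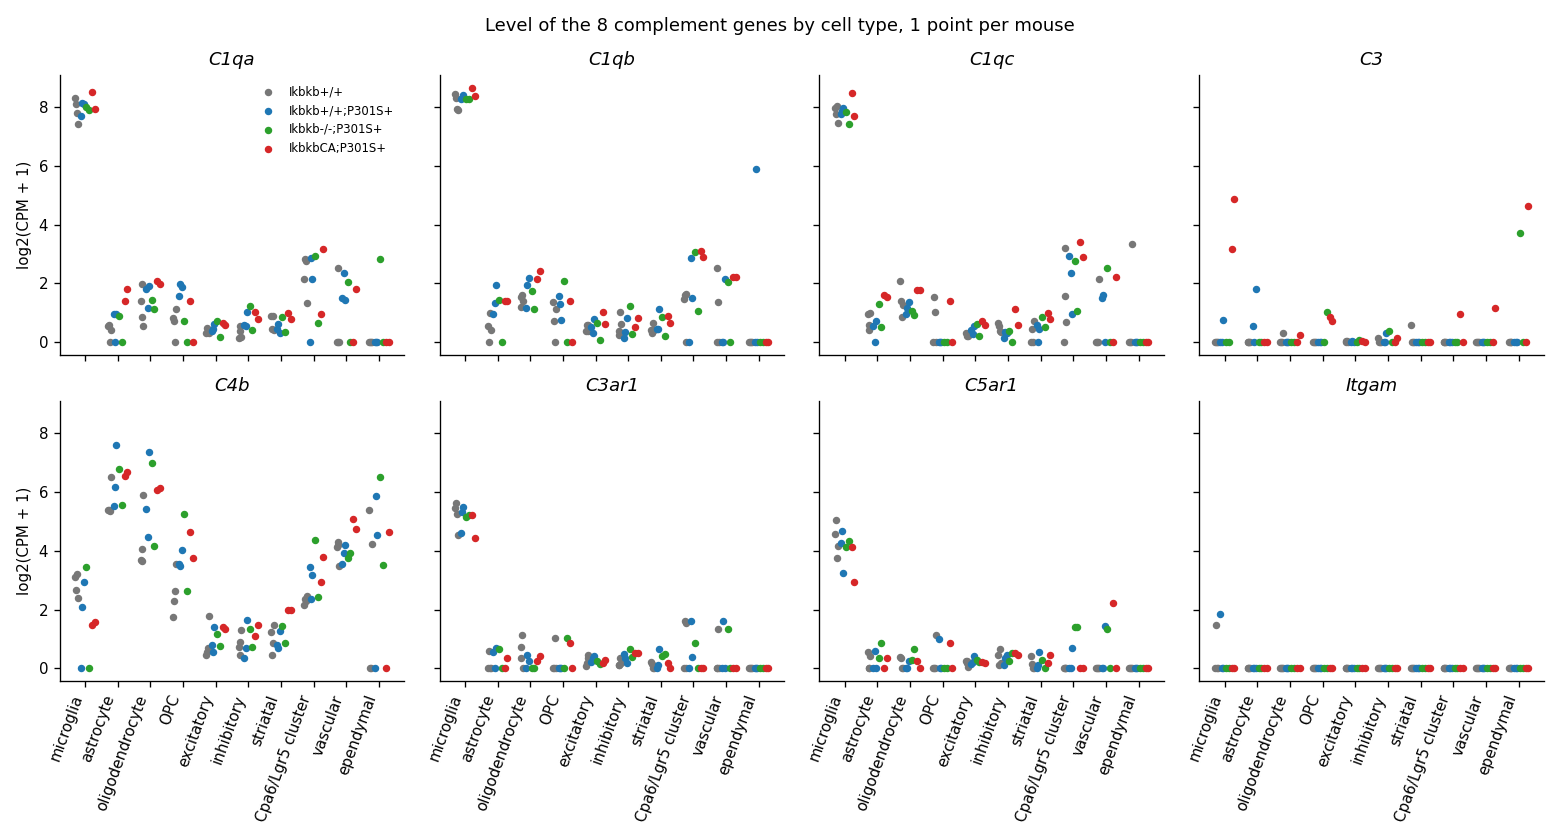
Levels of the 8 complement genes in each cell type, as CPM per mouse on a log scale. The C1q chains, C3ar1 and C5ar1 stand highest in microglia-like nuclei in all 11 mice, C4b stands highest in astrocyte-like nuclei, and Itgam is at or near 0.

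The C1q chains did not differ between genotypes in microglia-like nuclei by the test used. C1qb stood at 350, 312, 244 and 237 CPM in the Ikbkb+/+ mice, 305, 312 and 342 CPM in the Ikbkb+/+;P301S+ mice, 311 and 307 CPM in the Ikbkb-/-;P301S+ mice and 404 and 333 CPM in the IkbkbCA;P301S+ mice. The Ikbkb-/- values lie inside the range of the Ikbkb+/+;P301S+ mice, and of the IkbkbCA values 1 lies above all other mice and 1 inside the Ikbkb+/+;P301S+ range. C1qa stood at 312, 274, 221 and 171 CPM, then 207, 278 and 271 CPM, then 253 and 238 CPM, and at 366 and 244 CPM in the IkbkbCA;P301S+ mice. C1qc stood at 251, 217, 260 and 173 CPM, then 217, 233 and 248 CPM, then 226 and 169 CPM, and at 353 and 204 CPM in the IkbkbCA;P301S+ mice. For all 3 chains the higher IkbkbCA mouse was replicate 1, and replicate 2 lay inside the range of the controls for C1qa and below the Ikbkb+/+;P301S+ range for C1qc.

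The 5 members that passed the filter on low counts in microglia-like nuclei were the C1q chains, C3ar1 and C5ar1. C3, C4b and Itgam did not pass. None of the 5 (0) was called in the P301S, knockout or active IKKβ comparison, by edgeR's quasi-likelihood test with a Benjamini-Hochberg adjusted p under 0.05 over 8975 genes and an absolute log2 fold change over 0.1. The background share of genes called was 0.0334% in P301S (3 genes), 0% in knockout and 1.49% in active IKKβ (134 genes), and no member (0) had an unadjusted p under 0.05 in these comparisons, nor was any called by DESeq2. The log2 fold changes of C1qb were 0.16 ± 0.14 (SE) for P301S, -0.05 ± 0.17 for knockout and 0.17 ± 0.16 for active IKKβ (edgeR, Benjamini-Hochberg adjusted p = 0.827 in the first and 0.920 in the last). C1qa gave 0.06 ± 0.18, -0.05 ± 0.21 and 0.24 ± 0.20, and C1qc gave 0.06 ± 0.18, -0.22 ± 0.21 and 0.23 ± 0.20. The active IKKβ values of all 3 chains rest on replicate 1 of the IkbkbCA;P301S+ mice: without it those of C1qa, C1qb and C1qc were -0.08, 0.032 and -0.22. Against the Ikbkb+/+ mice, the IkbkbCA;P301S+ mice gave 0.34 ± 0.15 for C1qb (edgeR, Benjamini-Hochberg adjusted p = 0.334), where 3.70% of genes (332) were called. In simulated counts built on these libraries, the active IKKβ comparison recovered 58 of 100 genes changed 2-fold and 92 of 100 changed 4-fold, and smaller changes were not simulated.

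**Figure D2:**
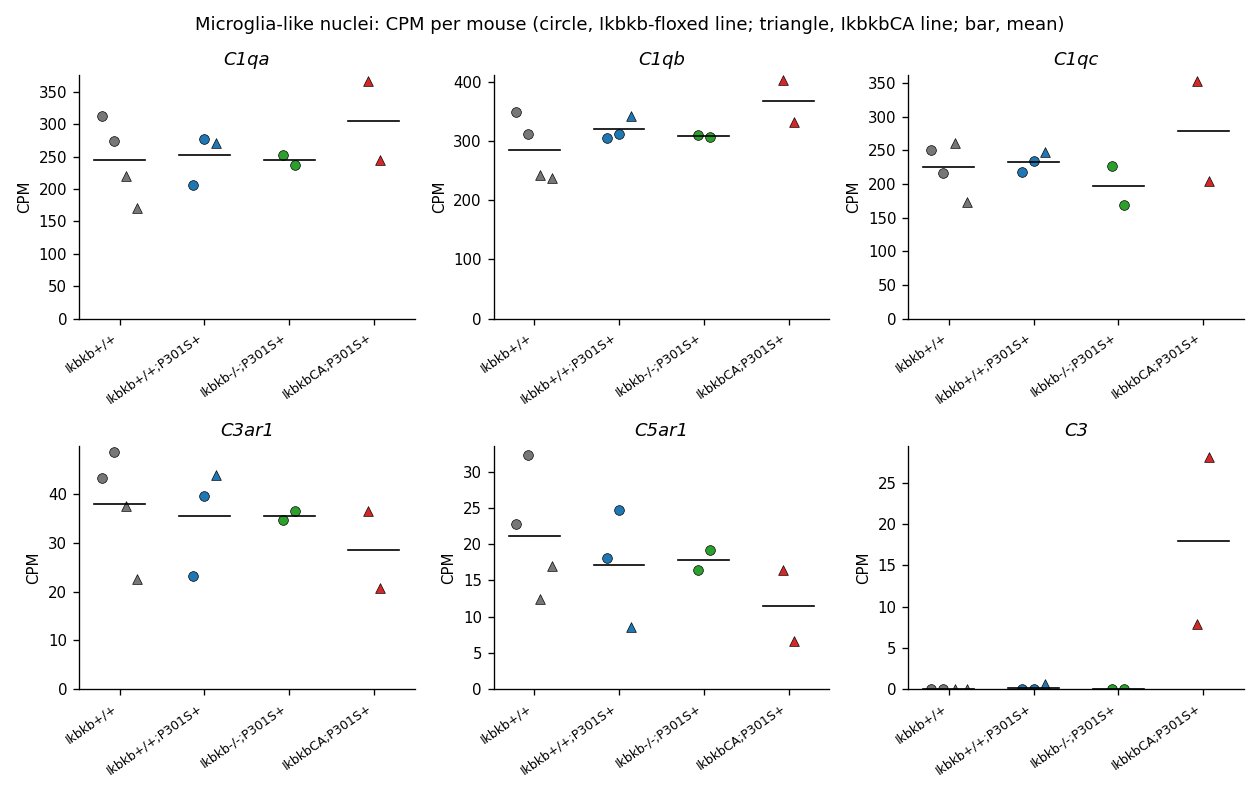
CPM of the complement genes in microglia-like nuclei, 1 point per mouse in the 4 genotype groups, with the group mean as a bar. For the C1q chains and the receptors C3ar1 and C5ar1 every other group overlaps the range of the Ikbkb+/+;P301S+ mice, and replicate 1 of the IkbkbCA;P301S+ mice is the highest of all mice for each C1q chain.

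The share of nuclei with a UMI was compared as well. After thinning to 1000 UMIs, a C1qb UMI was found in 24.2% of microglia-like nuclei in the Ikbkb+/+ mice (mean over mice), 28.3% in the Ikbkb+/+;P301S+ mice, 25.6% in the Ikbkb-/-;P301S+ mice and 29.0% in the IkbkbCA;P301S+ mice. The knockout difference of -2.74 percentage points had an exact permutation p = 0.1, the smallest that 2 against 3 mice allow, and 1 after adjustment over 24 tests. Without thinning it was 4.52 points, in the other direction. With 4 against 3 mice the smallest is 0.0286. Microglial subgroups held C1qb at unlike levels, which are given as a description, with exact Poisson intervals for counting error. The largest, with 49 of its 2055 nuclei from the IkbkbCA;P301S+ mice, held 294 CPM (277 to 311). A subgroup led by Ddo and Tead1, with 998 of its 1039 nuclei from the 2 IkbkbCA;P301S+ mice, held 394 CPM (370 to 419). The 56 nuclei led by Gpnmb, a gene raised in lipid-loaded phagocytes, held 164 CPM (109 to 237). The genes most like C1qb across the 11 mice, by the root mean square difference of log2 levels from each gene's own mean, were Ptp4a2 (0.102), Samd4b (0.108) and Tra2b (0.120), and for C1qa they were Sncaip (0.117), Pros1 (0.139) and C1qb (0.141).

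C3, the component on which the arms of the cascade meet, had 55 of its 56 microglial UMIs in the 2 IkbkbCA;P301S+ mice. The gene lies at chr17:57203970-57228136 on the minus strand. It had 0 UMIs in each of the 4 Ikbkb+/+ mice, 0, 0 and 1 UMI in the Ikbkb+/+;P301S+ mice, 0 in both Ikbkb-/-;P301S+ mice, and 13 and 42 UMIs in the IkbkbCA;P301S+ mice. The last values are 7.88 and 28.1 CPM, and the single UMI is 0.663 CPM. Both IkbkbCA mice were above all others, and replicate 2 held most of the UMIs. Pooled, the 55 UMIs of 3143310 were 43.8 times the share of the 1 UMI of 2503030 in the Ikbkb+/+;P301S+ mice (exact interval 7.54 to 1761, for counting error only). Against the Ikbkb+/+ mice, with 0 of 2140869 UMIs, the level was at least 12.5-fold higher, taking 3 counts over the group as the limit of a count of 0. The Ikbkb-/- mice, with 0 of 1736316 UMIs, and the Ikbkb+/+;P301S+ mice were both at or under this limit, so no fold was computed and a difference was not detectable at this depth.

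C3 did not pass the filter on low counts and has no value in the test named above. With no filter, the fitted active IKKβ log2 fold change was 5.05 ± 0.83 (edgeR, Benjamini-Hochberg adjusted p = 3.38e-07), where 1.71% of 20610 genes were called. Against the Ikbkb+/+ mice it was 6.95 ± 1.07 (edgeR, Benjamini-Hochberg adjusted p = 1.72e-08), where 2.67% were called. In that fit the prior degrees of freedom became infinite. The spread of a gene then came from the fit over all genes and not from its own values. These adjusted p are thus too small for a gene that varies between mice. DESeq2 on the same counts gave 5.20 ± 1.59 with no adjusted p, and without replicate 2 of the IkbkbCA;P301S+ mice the unfiltered edgeR value was 3.88 and was no longer called (Benjamini-Hochberg adjusted p = 0.122). Thinned, a C3 UMI was found in 1.72% of nuclei of the IkbkbCA;P301S+ mice against 0.0458% in the Ikbkb+/+;P301S+ mice (exact permutation p = 0.1, the smallest possible, and 1 after adjustment). The promoter shown above is that of this gene.

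**Figure D3:**
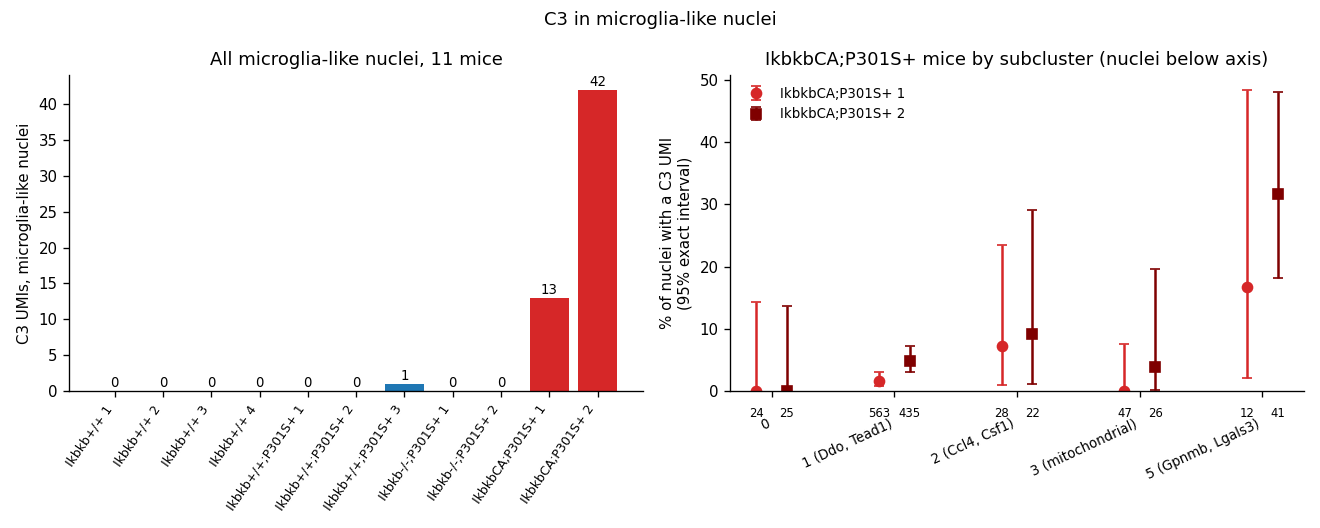
C3 in microglia-like nuclei, as UMIs per mouse and as the share of nuclei with a C3 UMI in the subgroups of the IkbkbCA;P301S+ mice. The UMIs are not scaled to library size, and the shares carry exact binomial intervals. The 2 IkbkbCA;P301S+ mice hold 13 and 42 UMIs (7.88 and 28.1 CPM), and the only other mouse with a UMI holds 1 (0.663 CPM).

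No nucleus held more than 2 C3 UMIs, so the share of nuclei with a UMI follows depth and does not count the nuclei that express C3. Intervals on nuclei pooled over mice cover counting error and not the difference between mice. A C3 UMI was found in 50 of 1285 microglia-like nuclei of the IkbkbCA;P301S+ mice (3.89%, exact binomial interval 2.90 to 5.10%). By mouse it was found in 13 of 692 (1.88%) in replicate 1 and 37 of 593 (6.24%) in replicate 2. In the other mice it was found in 1 of 3186 (0.0314%). In excitatory neuron-like nuclei, at a median of 9057 to 14546 UMIs per nucleus over mice against 1443 to 2473 in microglia-like nuclei, it was found in 6 of 38674 (0.0155%). In the IkbkbCA;P301S+ mice the Gpnmb-led subgroup had a C3 UMI in 15 of its 53 nuclei (28.3%, 16.8 to 42.3%; 122 CPM pooled) and the Ddo and Tead1 subgroup in 30 of 998 (3.01%, 2.04 to 4.26%; 12.2 CPM pooled). By mouse, the Gpnmb-led subgroup had it in 2 of 12 in replicate 1 and 13 of 41 in replicate 2. The Ddo and Tead1 subgroup had it in 9 of 563 (1.60%) in replicate 1 and 21 of 435 (4.83%) in replicate 2. In the Ccl4-led subgroup of the IkbkbCA;P301S+ mice a C3 UMI was in 4 of 50 (8%, 2.22 to 19.2%; 32.1 CPM pooled). The Gpnmb-led subgroup had the highest pooled level of the 3, and the Ddo and Tead1 subgroup the most nuclei with a UMI. Of the 53 Gpnmb-led nuclei, 41 came from replicate 2. With the Gpnmb-led subgroup left out, the unfiltered log2 fold change was 4.50 (edgeR, Benjamini-Hochberg adjusted p = 0.000268). The limit given above for adjusted p with no filter applies here too, and this set of nuclei was chosen after seeing the data. Of 92 C3 UMIs in all nuclei, 56 were in microglia-like nuclei (60.9%) and 8 were in astrocyte-like nuclei of replicate 3 of the Ikbkb+/+;P301S+ mice. In the excitatory neuron-like nuclei C3 stood at 0.0135 CPM. Summed markers of border macrophages stood at 61.3 and 231 CPM in microglia-like nuclei of the IkbkbCA;P301S+ mice and at 141 to 313 CPM in the Ikbkb+/+;P301S+ mice. The macrophage-like subgroup held 21 nuclei of the IkbkbCA;P301S+ mice, all of replicate 2, and 0 of them had a C3 UMI, which allows a share of up to 14.3% by the limit of 3 counts (exact binomial upper bound 16.1%). The part of macrophages in the C3 counts was not tested.

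C4b, the mouse C4 component that follows C1 in the classical arm, had its highest median in astrocyte-like nuclei and stood at a median of 4.23 CPM in microglia-like nuclei. It lies at chr17:34728380-34743882 on the minus strand. Microglia-like nuclei held 43 of its 6540 UMIs (0.657%). The macrophage-like subgroup among them held C4b at 50.2 CPM (exact Poisson interval 25.9 to 87.6), on 12 UMIs. The level was higher in astrocyte-like than in oligodendrocyte-like nuclei in 10 of 11 mice, with medians of 72.1 and 41.7 CPM (exact sign-flip permutation test, two-sided, p = 0.00293, Benjamini-Hochberg adjusted p = 0.0352). The next neighbours in the order, oligodendrocyte-like and vascular nuclei, did not pass the test (exact permutation, adjusted p = 0.148). In Ikbkb+/+ replicates 1, 2 and 3 fibroblast-like nuclei held more (26.9, 29.9 and 22.1 CPM) than oligodendrocyte-like nuclei (12.1, 11.8 and 15.9 CPM). They also held more in replicate 2 of the Ikbkb+/+;P301S+ mice and replicate 1 of the IkbkbCA;P301S+ mice, and less in the other mice. C4a, the closest paralog of C4b, was not found by symbol in the matrices. How reads that fit both genes were counted was not examined, so the level of C4b is uncertain in that respect.

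C4b varied widely between mice of one genotype. In astrocyte-like nuclei it stood at 41.3, 41.4, 39.96 and 89.7 CPM in the Ikbkb+/+ mice, 45.2, 72.1 and 195 CPM in the Ikbkb+/+;P301S+ mice, 111 and 46.2 CPM in the Ikbkb-/-;P301S+ mice and 93.2 and 103 CPM in the IkbkbCA;P301S+ mice. In oligodendrocyte-like nuclei it stood at 12.1, 11.8, 15.9 and 59.1 CPM, then 41.7, 21.4 and 164 CPM, then 126 and 16.8 CPM, and at 66.9 and 70.05 CPM in the IkbkbCA;P301S+ mice. In nuclei like oligodendrocyte precursors (OPC) it stood at 2.35, 3.86, 5.15 and 10.7 CPM, then 10.8, 10.2 and 15.5 CPM, then 37.4 and 5.16 CPM, and at 23.9 and 12.7 CPM in the IkbkbCA;P301S+ mice. The same mice were high in the first 2 of these types: replicate 3 of the Ikbkb+/+;P301S+ mice was the highest and replicate 1 of the Ikbkb-/-;P301S+ mice the next. The groups overlap in astrocyte-like and oligodendrocyte-like nuclei, and in OPC-like nuclei 3 of 4 Ikbkb+/+ mice lie below all Ikbkb+/+;P301S+ mice. The libraries also differed in make-up. Striatal projection neuron-like nuclei made up 4.52 to 15.7% of nuclei per library. The Cpa6 and Lgr5 cluster made up 14.1% in Ikbkb+/+ replicate 4, 13.8% in Ikbkb+/+;P301S+ replicate 3 and 2.59 to 9.68% in the other mice. The part of this make-up in the C4b levels was not tested.

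**Figure D4:**
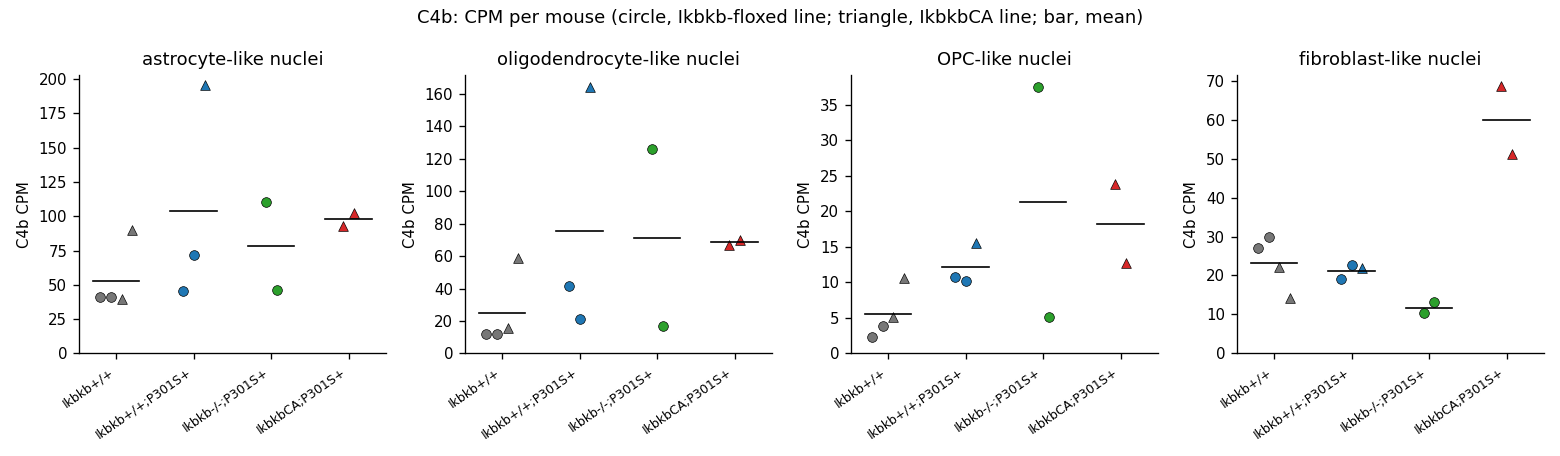
C4b CPM per mouse in astrocyte-, oligodendrocyte-, OPC- and fibroblast-like nuclei, with circles for the floxed Ikbkb line, triangles for the IkbkbCA line and a bar at the group mean. Replicate 3 of the Ikbkb+/+;P301S+ mice reaches 195 CPM in astrocyte-like nuclei against 45.2 and 72.1 CPM in the other mice of its group.

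C4b was tested in astrocyte-, oligodendrocyte-, OPC-, excitatory neuron-, inhibitory neuron- and vascular-like nuclei, and no difference was called (0) in these 6 types. In P301S the log2 fold change was 0.94 ± 0.40 in astrocyte-like nuclei, where 0% of 12174 genes were called (edgeR, Benjamini-Hochberg adjusted p = 0.957). It was 1.54 ± 0.69 in oligodendrocyte-like nuclei, where 0.00769% of 13006 genes were called (edgeR, adjusted p = 0.919), and 1.27 ± 0.54 in OPC-like nuclei, where 0.00976% of 10247 genes were called (edgeR, adjusted p = 0.9999). The first 2 values rest on replicate 3 of the Ikbkb+/+;P301S+ mice: without it they were 0.10 and 0.22, while the OPC value was 1.05. That mouse is the only one of its group from the IkbkbCA line. Its library also held 731 microglia-like nuclei, 507 of them in a Ccl4-led subgroup. The part of the line or of these nuclei in the C4b level was not tested. The knockout values were -0.41 ± 0.47 in astrocyte-like, -0.06 ± 0.75 in oligodendrocyte-like and 0.95 ± 0.46 in OPC-like nuclei. Without replicate 1 of the Ikbkb-/-;P301S+ mice they were -1.19, -2.20 and -1.26. With breeding line as a covariate the astrocyte and oligodendrocyte values became 0.19 and 1.13. In active IKKβ the values were -0.08 ± 0.46, -0.16 ± 0.75 and 0.52 ± 0.48 in the same order. The background shares called in knockout and active IKKβ were 0% in astrocyte-like, 0% and 0.0154% in oligodendrocyte-like and 0% in OPC-like nuclei.

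C4b stood higher in both IkbkbCA;P301S+ mice than in all others in fibroblast-like nuclei and in all vascular nuclei together. The fibroblast-like nuclei are a part of the vascular ones. How many other genes set these mice apart in this way was not counted, so the values are a description only. In fibroblast-like nuclei C4b stood at 68.6 and 51.1 CPM in the IkbkbCA;P301S+ mice and at 10.3 to 29.9 CPM in the other 9. The IkbkbCA;P301S+ mice had 28 and 82 such nuclei. The fibroblast-like values rest on 84 UMIs over all mice. In all vascular nuclei it stood at 33.0 and 25.8 CPM in the IkbkbCA;P301S+ mice and at 10.2 to 18.6 CPM in the other 9. The fit was made on all vascular nuclei together, where it gave 0.98 ± 0.39 in active IKKβ (edgeR, Benjamini-Hochberg adjusted p = 0.623) with 0% of 9293 genes called. Besides C4b, the members that passed the filter outside microglia were the 3 C1q chains in oligodendrocyte-like and excitatory neuron-like nuclei, C3ar1 in the latter, and C1qa and C1qb in inhibitory neuron-like nuclei. None (0) of these was called or had an unadjusted p under 0.05 in P301S, knockout or active IKKβ. In excitatory and inhibitory neuron-like nuclei C4b was at a median of 0.737 and 0.881 CPM, and it was called in no comparison (0) there, where 0.0333% and 0.0195% of genes were called in P301S, 0% in knockout, and 0.00555% and 0.00651% in active IKKβ.

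**Figure D5:**
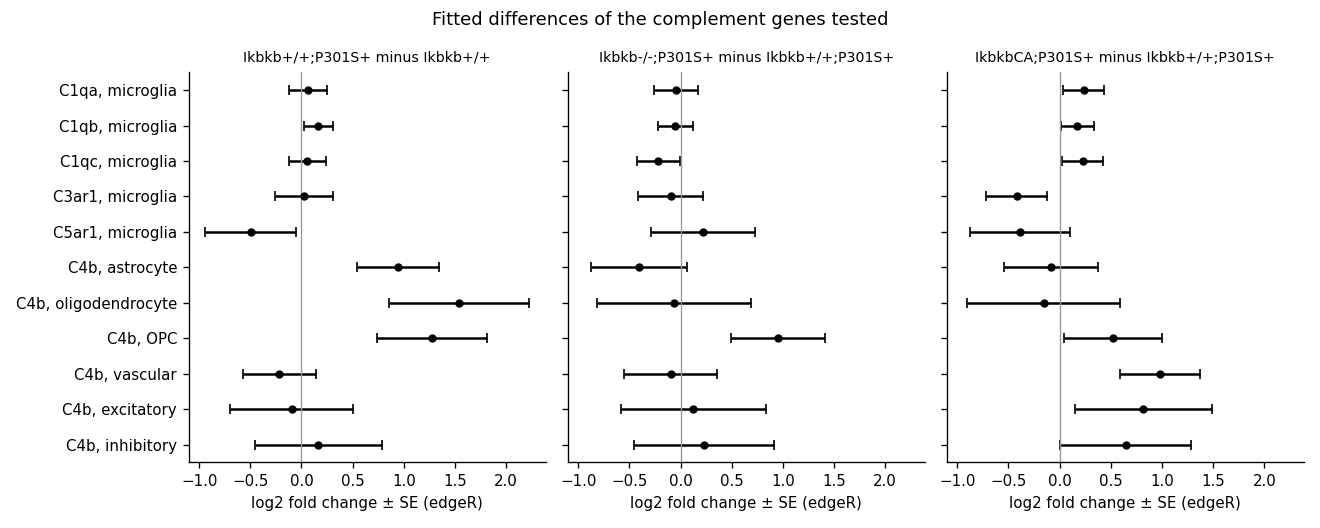
Log2 fold changes with standard errors (edgeR) of the C1q chains, C3ar1 and C5ar1 in microglia-like nuclei and of C4b in 6 other types, in the P301S, knockout and active IKKβ comparisons. The widest errors plotted are those of C4b in oligodendrocyte-like nuclei, and the largest microglial C1q value is 0.24, of C1qa in active IKKβ.

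The anaphylatoxin receptors were also highest in microglia-like nuclei, which include the macrophage-like ones. C3ar1, the receptor of the fragment C3a, lies at chr6:122847138-122856161 on the minus strand, and microglia-like nuclei held 329 of its 499 UMIs (65.9%). C5ar1, the receptor of C5a, lies at chr7:16246743-16259540 on the minus strand, and microglia-like nuclei held 147 of its 297 UMIs (49.5%). Each was higher in microglia-like nuclei than in the next type in 11 of 11 mice (exact sign-flip permutation test, adjusted p = 0.0141). C3ar1 stood at 43.1, 48.4, 37.5 and 22.6 CPM in the Ikbkb+/+ mice, 23.3, 39.5 and 43.8 CPM in the Ikbkb+/+;P301S+ mice, 34.6 and 36.4 CPM in the Ikbkb-/-;P301S+ mice and 36.4 and 20.7 CPM in the IkbkbCA;P301S+ mice. C5ar1 stood at 22.8, 32.3, 12.5 and 16.9 CPM, then 18.1, 24.7 and 8.62 CPM, then 16.5 and 19.2 CPM, and at 16.4 and 6.69 CPM in the IkbkbCA;P301S+ mice. Each group compared overlaps the Ikbkb+/+;P301S+ mice for both receptors, while both IkbkbCA values of C5ar1 lie below both Ikbkb-/- values, and replicate 2 of the IkbkbCA;P301S+ mice was the lowest of all mice for both.

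No receptor difference was called (0), as given above. For C3ar1 the log2 fold changes in P301S, knockout and active IKKβ were 0.02 ± 0.28, -0.10 ± 0.32 and -0.42 ± 0.30, the last with a Benjamini-Hochberg adjusted p = 0.835 (edgeR). For C5ar1 they were -0.50 ± 0.45, 0.22 ± 0.51 and -0.39 ± 0.49, the last turning to 0.27 with breeding line as a covariate. Among microglial subgroups, the macrophage-like nuclei held C3ar1 at 87.8 CPM (exact Poisson interval 54.3 to 134) and the largest subgroup at 30.4 CPM (25.2 to 36.3). The genes most like C3ar1 across the mice were Zfp24 (0.175), Akirin2 (0.194) and Nr3c1 (0.200), and those most like C5ar1 were Slc2a5 (0.245), Slc24a3 (0.279) and Gm10073 (0.282), by the measure used for C1q.

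Itgam, the α chain of complement receptor 3 (CD11b), was nearly absent from the counts, with 2 UMIs in all nuclei, both in microglia-like nuclei. 1 was in replicate 2 of the Ikbkb+/+ mice and 1 in replicate 1 of the Ikbkb+/+;P301S+ mice. The gene lies at chr7:128062640-128118491 on the plus strand, and the model Gm49368 (chr7:128062683-128128160), on the same strand, covers 99.9% of its span and 68.7% of its exon bases. Reads that fit more than 1 gene are not counted by the authors' software, so the counts of Itgam say nothing about its level. Gm49368 held 69 of its 85 UMIs (81.2%) in microglia-like nuclei, at 10.2, 14.4, 4.16 and 1.41 CPM in the Ikbkb+/+ mice, 10.3, 4.93 and 9.95 CPM in the Ikbkb+/+;P301S+ mice, 4.12 and 9.58 CPM in the Ikbkb-/-;P301S+ mice and 8.49 and 5.35 CPM in the IkbkbCA;P301S+ mice, ranges that overlap. Of the other 7 members, none (0) overlaps a gene on its own strand. The β chain of the same receptor, Itgb2, stood at 56.0 ± 9.44 CPM (SD, n = 11) in microglia-like nuclei.

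Of 48 other complement genes listed by role, 47 were found, all but C4a. Of these, 12 passed the filter in microglia-like nuclei (1 lectin-pathway gene, 3 receptors and 8 regulators). None (0) was called in P301S or knockout. In active IKKβ, where 1.49% of all genes were called, 1 of the 12 was called, Csmd3, a large transmembrane protein with complement control domains, which fell with a log2 fold change of -1.05 ± 0.21 (edgeR, Benjamini-Hochberg adjusted p = 0.0103). It stood at 4210, 4758, 3764 and 3705 CPM in the Ikbkb+/+ mice, 3256, 4609 and 2364 CPM in the Ikbkb+/+;P301S+ mice, 2442 and 3590 CPM in the Ikbkb-/-;P301S+ mice and 1730 and 1627 CPM in the IkbkbCA;P301S+ mice, which were the lowest of all mice. The call was lost with breeding line as a covariate (-0.69, edgeR adjusted p = 0.113), with doublets kept (-0.87), without replicate 2 of the Ikbkb+/+;P301S+ mice (-0.76) and without replicate 2 of the IkbkbCA;P301S+ mice (-1.01). Against the Ikbkb+/+ mice Csmd3 fell by 1.33 on the log2 scale (edgeR, Benjamini-Hochberg adjusted p = 0.000395), and this call held with line as a covariate (-1.09), with doublets kept (-1.15), under DESeq2 (-1.32) and without each mouse in turn. Itgax, the α chain of complement receptor 4 (CD11c), was called, of the 5 comparisons, for the IkbkbCA;P301S+ mice against the Ikbkb+/+ mice alone, a comparison in which 3.70% of all genes were called, and rose by 3.72 ± 0.71 on the log2 scale (edgeR, Benjamini-Hochberg adjusted p = 0.00284), a call lost under DESeq2 (3.77, adjusted p = 0.1002) and without replicate 2 of the IkbkbCA;P301S+ mice (2.96, edgeR adjusted p = 0.0608). It stood at 2.54 to 6.25 CPM in the Ikbkb+/+ mice, 2.59, 16.4 and 51.1 CPM in the Ikbkb+/+;P301S+ mice, 16.5 and 0 CPM in the Ikbkb-/-;P301S+ mice and 30.9 and 74.3 CPM in the IkbkbCA;P301S+ mice. In P301S Itgax gave 2.95 (edgeR, Benjamini-Hochberg adjusted p = 0.153). It was called there with no filter (2.99), in the fit whose spread came from all genes. It was also called without replicate 1 of the Ikbkb+/+;P301S+ mice (3.27, edgeR adjusted p = 0.0294), and its value was 1.501 without replicate 3.

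None (0) of the other complement genes that passed the filter was called in astrocyte-like (13 tested), oligodendrocyte-like (17), OPC-like (10), excitatory neuron-like (34), inhibitory neuron-like (21) or vascular nuclei (15), with the background shares given for C4b. Values are the mean over mice with its SD (n = 11) in the type where the mean was highest. In the classical arm C1s1, the protease of C1, stood at 10.0 ± 8.29 CPM in mural-like nuclei, on 12 UMIs, and C1ra and C2 were highest on 3 and 4 UMIs, with 42.8% of the exon bases of C2 covered by the model Gm20547 on the same strand. In the lectin arm Colec12, a scavenger receptor collectin, stood at 1554 ± 230 CPM in mural-like nuclei and Masp1, a protease of the arm, at 41.05 ± 10.51 CPM in OPC-like nuclei, and Masp2, another of its proteases, at 2.64 ± 1.16 CPM in astrocyte-like nuclei. In the alternative arm properdin, Cfp, stood at 12.9 ± 6.41 CPM in fibroblast-like nuclei, and Cfb cannot be read, since Gm20547 covers 99.4% of it on the same strand. Of the terminal genes, C7 stood at 7.68 ± 1.95 CPM in excitatory neuron-like nuclei, while Hc, which encodes C5, had 8 UMIs in ependymal-like nuclei and C8a 1, too few to give a level. Among receptors, Cd93 stood at 86.4 ± 68.4 CPM in endothelial-like nuclei and the C5a receptor C5ar2 at 21.3 ± 10.2 CPM in microglia-like nuclei. Among regulators, Csmd1 stood at 8005 ± 553 CPM in OPC-like nuclei and vitronectin, Vtn, at 1230 ± 311 CPM in mural-like nuclei. Vtn was 1 of the 7 markers used to name that type, so its place there is not independent of the naming.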

How the data were processed

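Nuclei from frozen cortex were profiled with the 10x Chromium 3′ v3 kit after sorting on DAPI. Reads were aligned by the authors with Cell Ranger 3.1.0 to mm10, intronic reads included, and the deposited matrices hold raw, unnormalised UMI counts of genes by barcodes. Filters were 300 to 8000 genes and no more than 5% mitochondrial UMIs, as in the study's methods (112539 of 114118 barcodes). Doublets were called from simulated pairs of nuclei, by a method other than the study's, and 9474 nuclei were left out. Clustering used counts scaled to 10000 UMIs, 2000 variable genes, 15 principal components, 20 neighbours and the Leiden method (leidenalg 0.10.2, resolution 0.1), with 16 clusters as the outcome. The 56 complement genes were left out of the clustering, and clusters were named from marker lists, whose only complement gene was Vtn, a mural marker. The members, lists and markers were chosen with earlier results of these data known.

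The mouse was the replicate, so counts were summed per mouse and type. They were fitted over all 11 mice with edgeR 4.0.16 (R 4.3.3) after TMM normalisation, with filterByExpr, 1 term per genotype and Benjamini-Hochberg adjustment over all genes tested. CPM are the summed UMIs of a gene scaled to 1e6 UMIs of the type, without TMM factors. All 8 members are described. Other complement genes are named where they were called, or by the highest mean levels of their role. Levels of neighbouring types were compared within mice by sign flips on log2(CPM + 1). Nuclei under 1000 UMIs were left out of the thinned shares. Intervals and limits cover counting error only. The fit was tested on simulated data, in which 11 of 161 calls were false. Alternatives were DESeq2 1.42.0, no filter, covariates, thinning, other sets of nuclei and leaving out each mouse, and those on the Gpnmb-led and macrophage-like nuclei and the combinations with no filter were chosen after seeing the data. Promoter windows come from RefSeq and coordinates from GENCODE M21, both on GRCm38.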

Additional observations from a re-analysis of the deposited data

Results flagged for a closer look

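In the Ikbkb+/+ group, replicate 4 stood apart from the other 3 mice for C4b in 3 types, by the gap to its nearest neighbour relative to the range of the group (Dixon's test for 4 samples). It was at 89.7 CPM in astrocyte-like nuclei against 39.96 to 41.4 CPM, at 59.1 CPM in oligodendrocyte-like nuclei against 11.8 to 15.9 CPM, and at 2.48 CPM in excitatory neuron-like nuclei against 0.386 to 0.625 CPM. There were 21 groups of 4 mice tested, chance flags about 1 in 20, and the 3 values come from 1 library. Without this mouse the P301S log2 fold change of C4b was 1.33 in astrocyte-like, 2.53 in oligodendrocyte-like and 1.69 in OPC-like nuclei.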

How the results depend on the processing

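None of the members that passed the filter (5 in microglia-like nuclei, where C3, C4b and Itgam have no value) was called in P301S, knockout or active IKKβ under DESeq2, covariates for line or age, thinning, doublets kept or other sets of nuclei. With no filter, 1 was called in active IKKβ (C3; also 1 with line as a covariate or the Gpnmb-led nuclei left out, and 0 with DESeq2) and 1 against the Ikbkb+/+ mice (1 also with each of these), and 1 each in astrocyte-like and oligodendrocyte-like nuclei in P301S (C4b). In the edgeR fits with no filter the spread of a gene came from the fit over all genes and not from its own values. The spread of C4b went from 7.19 to 0.776 in astrocyte-like and from 22.0 to 0.769 in oligodendrocyte-like nuclei. Leaving out each mouse in turn gave 0 to 1 called in active IKKβ and 0 to 2 against Ikbkb+/+ (C3, and with no filter also C1qc without IkbkbCA;P301S+ replicate 2). With the filter, C3 entered these fits only where the smallest group fell to 1 mouse, through the counts of the IkbkbCA;P301S+ mice, and a lone mouse was assumed to vary like the other groups. Mice sharing a title number were compared by the correlation of their deviations (22 pairs, -0.113 to 0.185). The 22 pairs with different numbers gave -0.185 to 0.113. Deviations mirror each other in groups of 2 mice and numbers restart in each breeding line, so whether the numbers pair mice was not settled. With the number as a replicate block 0 members were called in every comparison. Over all genes in microglia-like nuclei, the count called moved from 3 to 119 in P301S, from 0 to 71 in knockout, from 134 to 352 in active IKKβ and from 332 to 550 against Ikbkb+/+ with no filter, to 28, 0, 71 and 196 with line as a covariate and to 0, 0, 54 and 159 with doublets kept; without IkbkbCA;P301S+ replicate 2 the active IKKβ count was 67.

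Directions turned for values that were not called, and the cause was not tested. In P301S, C1qc turned under the block (-0.0073) and thinning (-0.056), and C3ar1 under DESeq2 (-0.027, and -0.031 with no filter), the block (-0.036) and age (-0.016). In knockout, age turned C1qa (0.24), C1qb (0.019), C1qc (0.13) and C3ar1 (0.63), and line turned C5ar1 (-0.24, or -0.22 with no filter) and C4b in astrocyte-like (0.19) and oligodendrocyte-like nuclei (1.13). In active IKKβ, line turned C5ar1 (0.27, with or without the filter), C4b in excitatory (-0.092) and inhibitory neuron-like nuclei (-0.21), and the block turned C4b in oligodendrocyte-like nuclei (0.13). Line turned C4b in excitatory neuron-like nuclei in P301S (0.24).

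Leaving out each mouse gave these ranges. In P301S they were -0.089 to 0.20 for C1qa, -0.062 to 0.13 for C1qc, -0.20 to 0.19 for C3ar1, -0.94 to 0.058 for C5ar1, and for C4b -0.63 to 0.80 in excitatory and -0.80 to 0.60 in inhibitory neuron-like nuclei. In knockout they were -0.14 to 0.024 for C1qa, -0.24 to 0.099 for C3ar1, -0.34 to 0.66 for C5ar1, and for C4b -1.19 to 0.44 in astrocyte-like, -2.20 to 1.26 in oligodendrocyte-like, -1.26 to 1.60 in OPC-like, -0.25 to 0.084 in vascular, -0.35 to 0.66 in excitatory and -0.52 to 1.20 in inhibitory neuron-like nuclei. In active IKKβ they were -0.079 to 0.50 for C1qa, -0.22 to 0.56 for C1qc, -1.16 to 0.10 for C5ar1, and for C4b -0.41 to 0.76 in astrocyte-like and -0.61 to 1.17 in oligodendrocyte-like nuclei. Against Ikbkb+/+ they were -0.015 to 0.56 for C1qa and -0.16 to 0.62 for C1qc. With no filter as well, leaving out IkbkbCA;P301S+ replicate 1 gave -0.041 for C1qa and -0.18 for C1qc in active IKKβ and -0.11 for C1qc against Ikbkb+/+, and leaving out replicate 2 gave 0.14 for C5ar1 in active IKKβ.

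Differences in the share of nuclei with a UMI, in percentage points, turned in knockout for C1qa at 500 UMIs (-3.23), for C1qb and C1qc without thinning (4.52 and 3.07) and for C3ar1 at 500 UMIs (-0.985), in P301S for C1qc without thinning (-1.02) and C3ar1 at 500 UMIs (0.641), and in active IKKβ for C3ar1 without thinning (0.389). Leaving out each mouse gave -1.46 to 3.60 for C1qa, -0.232 to 0.652 for C3ar1 and -0.00702 to 0.983 for C5ar1 in knockout, -0.075 to 1.62 for C1qc and -0.609 to 0.254 for C5ar1 in P301S, and -0.359 to 8.01 for C1qc and -1.26 to 0.945 for C3ar1 in active IKKβ.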
